A study of Mus musculus with 13 samples.

Results

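The cytochrome P450 genes are named Cyp, followed by a family number, a subfamily letter and a gene number. The 90 protein-coding genes of the mouse assembly mm9 (GENCODE M1 annotation) whose symbol has this form were examined here, out of 22367 protein-coding genes on the nuclear chromosomes. Cyp51, which has no subfamily letter, was left out, and so were 4 genes whose symbols end in a further letter. The 90 genes belong to 38 subfamilies on 14 chromosomes. Of these, 64 lay in 8 clusters of at least 3 Cyp genes, each no more than 500 kb from the next, and 26 lay outside clusters.

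P450 enzymes carry a heme group and insert oxygen into their substrates with electrons supplied by a reductase. The liver is their main site in the body. There, enzymes of families that take up drugs and other foreign compounds work beside enzymes that make bile acids, while others make steroid hormones in the adrenal gland and gonads or adjust the levels of vitamin D, retinoic acid and fatty acids. The subfamilies that handle foreign compounds mostly sit in the genome as tandem arrays of near copies. KAP1 (gene Trim28) is a corepressor that zinc finger proteins bring to DNA, where it recruits the enzyme that writes H3K9me3, a mark of silent chromatin. H3K27ac and H3K4me1 mark active promoters and enhancers and are called active marks below.

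The data were ChIP-seq lists from Hepa 1-6, a mouse hepatoma cell line. KAP1, H3K27ac, H3K4me1 and H3K9me3 came from cells in standard culture, and RNA polymerases II and III (PolII and PolIII) came from cells fixed 5 days after transduction. Transduction followed by selection with puromycin is what the methods of the study describe for these cells, whereas the labels speak of transfection with a plasmid. Per the labels they carried either a control hairpin or a hairpin against KAP1 (Kap1 KD). The methods call the control an empty vector. Of 13 samples, 8 had a list and each of these was 1 library, so no value below has a replicate error, no p-value could be given, and counts are set beside the same count over all protein-coding genes. The 5 input libraries were not analysed here. The lists hold called regions without read counts, so depth is unknown: a gene without a region had no region called at that depth, which differs from having no signal. Near copies add a further limit. With reads of 100 bases, at least 90% of the reads starting within 250 bp of the gene start would occur once in the genome at 76 of 90 Cyp genes (84.4%), against 91.5% of all genes.

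The hepatoma label was checked on marker genes. Of 10 hepatocyte markers, 5 had an active mark over the promoter, where the share of all protein-coding genes was 24.8%, among them the genes of albumin (Alb), alpha-fetoprotein (Afp), fibrinogen beta (Fgb) and the regulator Hnf4a with H3K27ac. Ttr, Apoa1 and Apob, which encode proteins secreted by the liver, had no list over the promoter or in the gene body, and Serpina1a had H3K9me3 in the body alone. None of 3 leukocyte and 2 endothelial markers had a list over the promoter, where 58.5% of all protein-coding promoters had none either. Pecam1 of the endothelium had 6 H3K27ac and 9 H3K4me1 regions in its body. Ptprc of leukocytes had 1 H3K4me1 region and 1 PolIII peak of the control there. In contrast, 3 of 3 fibroblast markers (Col1a1, Col3a1, Dcn) and 2 of 2 bile duct keratins (Krt7, Krt19) had an active mark over the promoter. The part that this profile has in the results below was not tested.

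Promoters were taken as 250 bp on each side of the annotated gene start. Most Cyp promoters had no region of any list: 71 of 90, or 78.9%, against 58.5% of all protein-coding promoters. H3K27ac lay over 9 Cyp promoters (10.0% against 20%), H3K4me1 over 6 (6.67% against 11.9%) and KAP1 over 3 (3.33% against 15.7%). H3K9me3 lay over 7 (7.78% against 5.24%). PolII lay over 1 promoter in the control (1.11% against 13.1%) and over 3 under Kap1 KD (3.33% against 23.3%). The control promoter, that of Cyp20a1, was among these 3. Cyp27a1 and Cyp2s1 had a peak in the Kap1 KD list with no listed control peak within 1 kb. PolII of either condition lay over 3.33% of Cyp promoters and 24.1% of all promoters, so peaks under Kap1 KD alone are also found over other genes. The peaks of the polymerase lists are numbered and some numbers are missing. Of the Cyp promoters without a PolII peak, 40 of 89 in the control and 30 of 87 under Kap1 KD lay between peaks with a missing number, where absence cannot be read. PolIII lay over no Cyp promoter in either condition, and a count of 0 is near the shares of all genes of 0.344% and 0.134%. Numbers were missing around 76 and 52 of the 90 starts in these lists. Missing numbers are given for Cyp genes only, so it is not known whether they are as common around other genes. By histone marks, 11 promoters had an active mark without H3K9me3 (12.2% against 24.4%), 7 had H3K9me3 without an active mark (7.78% against 4.8%), and none had both, near the 0.443% of all genes.

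**Figure D1:**
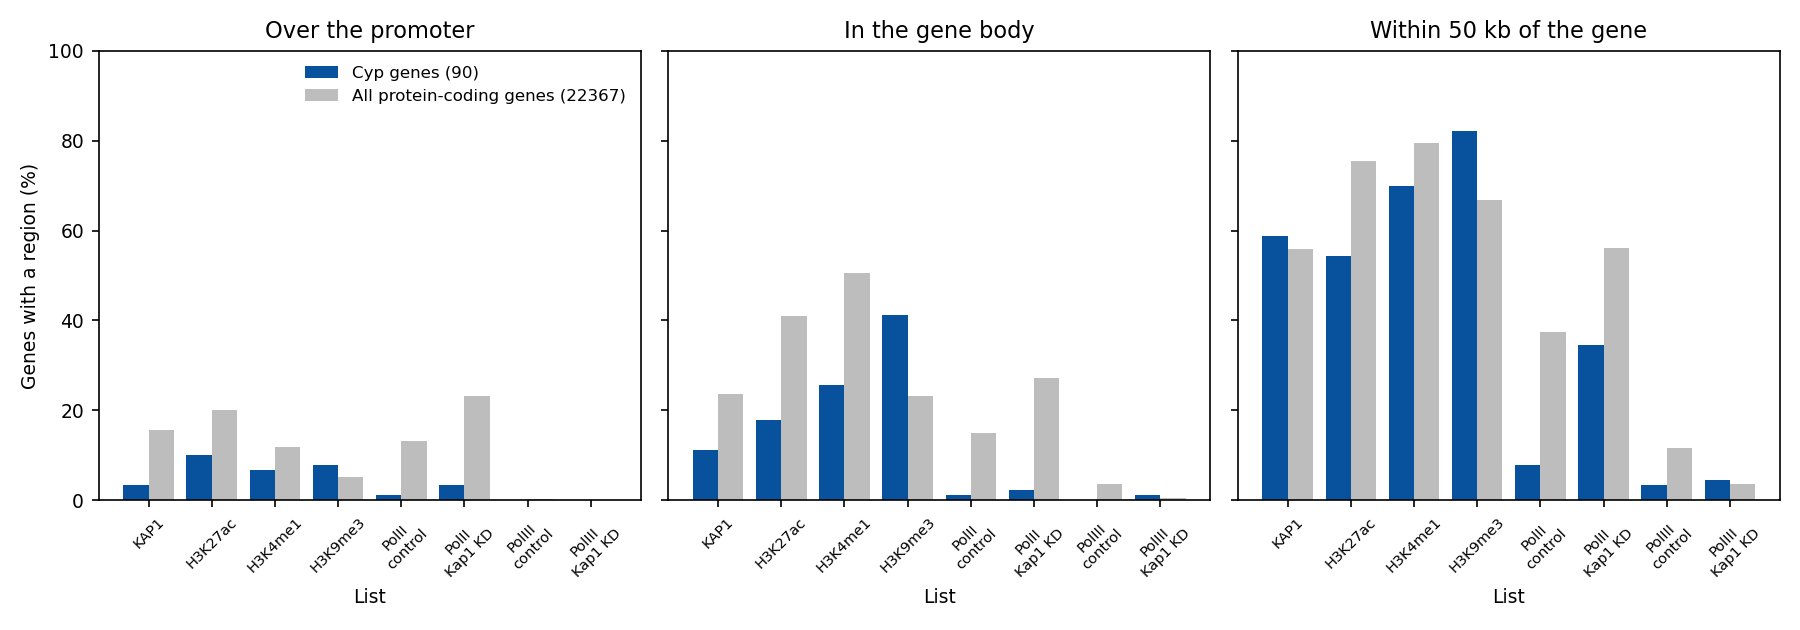
Percent of the 90 Cyp genes (blue) and of all 22367 protein-coding genes (grey) with at least 1 region of each list over the promoter (left), in the gene body (middle) and within 50 kb of the gene (right). H3K9me3 is the list whose Cyp share exceeds the share of all genes in each panel (7.78% against 5.24%, 41.1% against 23.2% and 82.2% against 66.8%). H3K27ac, H3K4me1 and PolII lie below the share of all genes in each panel. The H3K9me3 promoter count is 7 genes, and with regions at or above the median width the promoter shares were 4.44% against 4.28%.

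The sequences before the gene start are shown for the 6 Cyp genes with the most lists over the promoter (ties by symbol), so that the marked promoters can be compared with each other. Each run is the 250 bases before the start, 5′ to 3′ on the strand of the gene, from the mm9 assembly. Capitals mark matches on either strand to any of 5 motifs. One is the TATA box, searched as TATAAA. The core of the site bound by the aryl hydrocarbon receptor was searched as GCGTG. The half-site shared by many nuclear receptors was searched as AGGTCA. For the liver factors HNF1 and FOXA, the letters were GTTAAT for the half-site of the former and, for the core of the site of the latter, TGTTTA.
Cyp20a1 (chr1:60399917-60400166, plus strand): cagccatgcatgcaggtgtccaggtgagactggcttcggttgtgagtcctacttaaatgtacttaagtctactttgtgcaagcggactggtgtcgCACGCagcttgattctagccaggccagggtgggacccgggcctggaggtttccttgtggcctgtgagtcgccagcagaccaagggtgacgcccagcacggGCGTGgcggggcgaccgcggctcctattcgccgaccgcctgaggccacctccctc
Cyp27a1 (chr1:74759898-74760147, plus strand): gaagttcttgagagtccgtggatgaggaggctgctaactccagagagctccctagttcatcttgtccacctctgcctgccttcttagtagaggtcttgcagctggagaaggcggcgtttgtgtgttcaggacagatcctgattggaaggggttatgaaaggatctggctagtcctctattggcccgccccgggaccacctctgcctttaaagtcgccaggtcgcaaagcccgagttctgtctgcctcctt
Cyp2s1 (chr7:26601933-26602182, minus strand): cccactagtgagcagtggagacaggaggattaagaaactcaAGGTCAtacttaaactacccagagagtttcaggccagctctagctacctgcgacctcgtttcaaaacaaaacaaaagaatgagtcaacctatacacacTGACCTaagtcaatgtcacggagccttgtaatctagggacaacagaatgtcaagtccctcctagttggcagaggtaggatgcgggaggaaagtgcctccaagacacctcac
Cyp2c68 (chr19:39815545-39815794, minus strand): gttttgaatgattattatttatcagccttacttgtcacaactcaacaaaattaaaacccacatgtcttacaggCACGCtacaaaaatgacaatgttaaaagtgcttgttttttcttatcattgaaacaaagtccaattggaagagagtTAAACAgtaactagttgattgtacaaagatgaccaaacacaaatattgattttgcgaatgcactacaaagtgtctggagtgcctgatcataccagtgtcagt
Cyp2u1 (chr3:131006146-131006395, minus strand): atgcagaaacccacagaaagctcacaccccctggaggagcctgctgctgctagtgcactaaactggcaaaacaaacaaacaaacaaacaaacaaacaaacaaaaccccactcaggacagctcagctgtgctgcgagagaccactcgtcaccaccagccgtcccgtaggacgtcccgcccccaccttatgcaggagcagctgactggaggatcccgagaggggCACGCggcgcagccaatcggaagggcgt
Cyp21a1 (chr17:34941507-34941756, minus strand): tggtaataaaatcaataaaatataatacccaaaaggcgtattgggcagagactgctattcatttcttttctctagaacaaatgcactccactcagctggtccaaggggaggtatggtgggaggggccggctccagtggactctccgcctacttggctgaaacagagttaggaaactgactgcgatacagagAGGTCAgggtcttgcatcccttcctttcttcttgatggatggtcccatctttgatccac
The run of Cyp20a1 holds 16 CpG dinucleotides and that of Cyp2u1 holds 12. The runs of Cyp27a1, Cyp2s1, Cyp21a1 and Cyp2c68 hold 8, 4, 4 and 2. Cyp27a1 matched none of the 5 motifs in these bases.

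Well-known members with no list over the promoter are shown for contrast: Cyp1a2, which oxidises caffeine, Cyp1b1, which oxidises estrogens, and Cyp2e1, which oxidises ethanol.
Cyp1a2 (chr9:57531463-57531712, minus strand): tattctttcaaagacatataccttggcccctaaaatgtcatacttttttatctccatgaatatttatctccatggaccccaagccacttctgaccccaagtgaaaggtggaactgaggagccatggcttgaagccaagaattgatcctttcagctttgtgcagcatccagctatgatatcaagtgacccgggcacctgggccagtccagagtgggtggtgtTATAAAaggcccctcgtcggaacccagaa
Cyp1b1 (chr17:80114402-80114651, minus strand): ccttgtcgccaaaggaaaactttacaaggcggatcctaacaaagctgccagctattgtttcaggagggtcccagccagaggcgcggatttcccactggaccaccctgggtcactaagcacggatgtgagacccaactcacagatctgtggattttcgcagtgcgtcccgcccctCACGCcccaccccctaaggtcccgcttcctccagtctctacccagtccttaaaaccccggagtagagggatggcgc
Cyp2e1 (chr7:147949388-147949637, plus strand): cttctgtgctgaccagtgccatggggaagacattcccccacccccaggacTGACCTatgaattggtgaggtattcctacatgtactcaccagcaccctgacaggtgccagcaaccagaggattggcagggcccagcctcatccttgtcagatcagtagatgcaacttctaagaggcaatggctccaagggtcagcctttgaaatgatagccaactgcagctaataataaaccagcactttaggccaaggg
Cyp1a2 has TATAAA 29 bases before its start and Cyp2e1 has no CpG in these bases, whereas Cyp1b1 has 12.

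As a family, Cyp promoters were poor in CpG. Over 300 bases (250 before and 50 after the start), the median ratio of observed to expected CpG was 0.166 for the 90 Cyp genes and 0.534 for all protein-coding genes, and 9 Cyp genes (10.0%) reached 0.6 against 45.2% of all genes. TATAAA occurred in 33 Cyp promoters (36.7% against 13.4%) and AGGTCA in 26 (28.9% against 14.4%). TGTTTA occurred in 16 (17.8% against 12.1%) and GTTAAT in 9 (10.0% against 6.23%). GCGTG, which contains a CpG itself, occurred in 19 (21.1% against 37%). A match is only a run of letters and does not show that a factor binds.

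Clustered genes had fewer CpG than the others, with overlap. None of the 64 clustered genes reached a ratio of 0.6 (median 0.138, highest 0.512), whereas 9 of the 26 outside clusters did (median 0.304, lowest 0.0639). These 9 were Cyp20a1, Cyp46a1, Cyp39a1, Cyp1b1, Cyp26a1, Cyp24a1, Cyp2u1, Cyp2r1 and Cyp4v3. CpG content also moved with the lists over all genes. Among genes below 0.6, no list lay over 67 of 81 Cyp promoters (82.7%) and over 76.4% of all promoters. KAP1 lay over 1 of these 81 (1.23% against 4.75%). An active mark lay over 9 of these 81 (11.1% against 15.6%), H3K9me3 over 5 (6.17% against 5.75%) and PolII of either condition over 2 (2.47% against 8.19%). Among the 9 CpG-rich Cyp genes, an active mark lay over 2 promoters, KAP1 over 2, H3K9me3 over 2 and PolII over 1. The shares among all CpG-rich genes were 36.1%, 29.1%, 4.62% and 43.4%, and 2 of 9 is 22.2%.

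Cyp20a1, whose substrate is not known, was the one Cyp gene with PolII over the promoter in both conditions, and it had the most lists of any member, with 3 over the promoter and 5 in the gene body. The gene is at chr1:60400167-60444904 on the plus strand. The KAP1 peak (chr1:60399921-60400926) covered the start and the first exon with a score of 67.22, rank 9507 of 12470. The PolII peak was 941 bp wide in the control (chr1:60399735-60400675, score 47, rank 2003 of 5015) and 536 bp wide under Kap1 KD (chr1:60399798-60400333, score 42, rank 7273 of 12862). H3K27ac and H3K4me1 regions began 373 and 462 bp inside the gene and overlapped the KAP1 peak, and a single H3K9me3 region of 217 bp lay in an intron 6.03 kb from the start. The promoter itself carried KAP1 and PolII, with active marks on both sides.

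Cyp27a1, a mitochondrial sterol hydroxylase of bile acid synthesis at chr1:74760148-74784464, was the one Cyp gene whose start itself lay in an H3K27ac region. This region (chr1:74758827-74760953) was 2127 bp wide. PolII covered the start under Kap1 KD (chr1:74759667-74760234, score 33, rank 8891 of 12862) and not in the control. No peak number was missing from the control list around this start, and the nearest control peak lay 56.9 kb away. The depth of both libraries is unknown, and the Kap1 KD list is longer than the control list as a whole (12862 against 5015 peaks). Inside the gene, 12.8 kb from the start and within introns, a KAP1 peak (chr1:74772980-74774144, score 114.48) overlapped H3K27ac and H3K4me1. A PolIII peak of the control (score 16, rank 2591 of 2772) lay 3.56 kb upstream. Cyp27a1 had no H3K9me3 region within 50 kb.

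**Figure D2:**
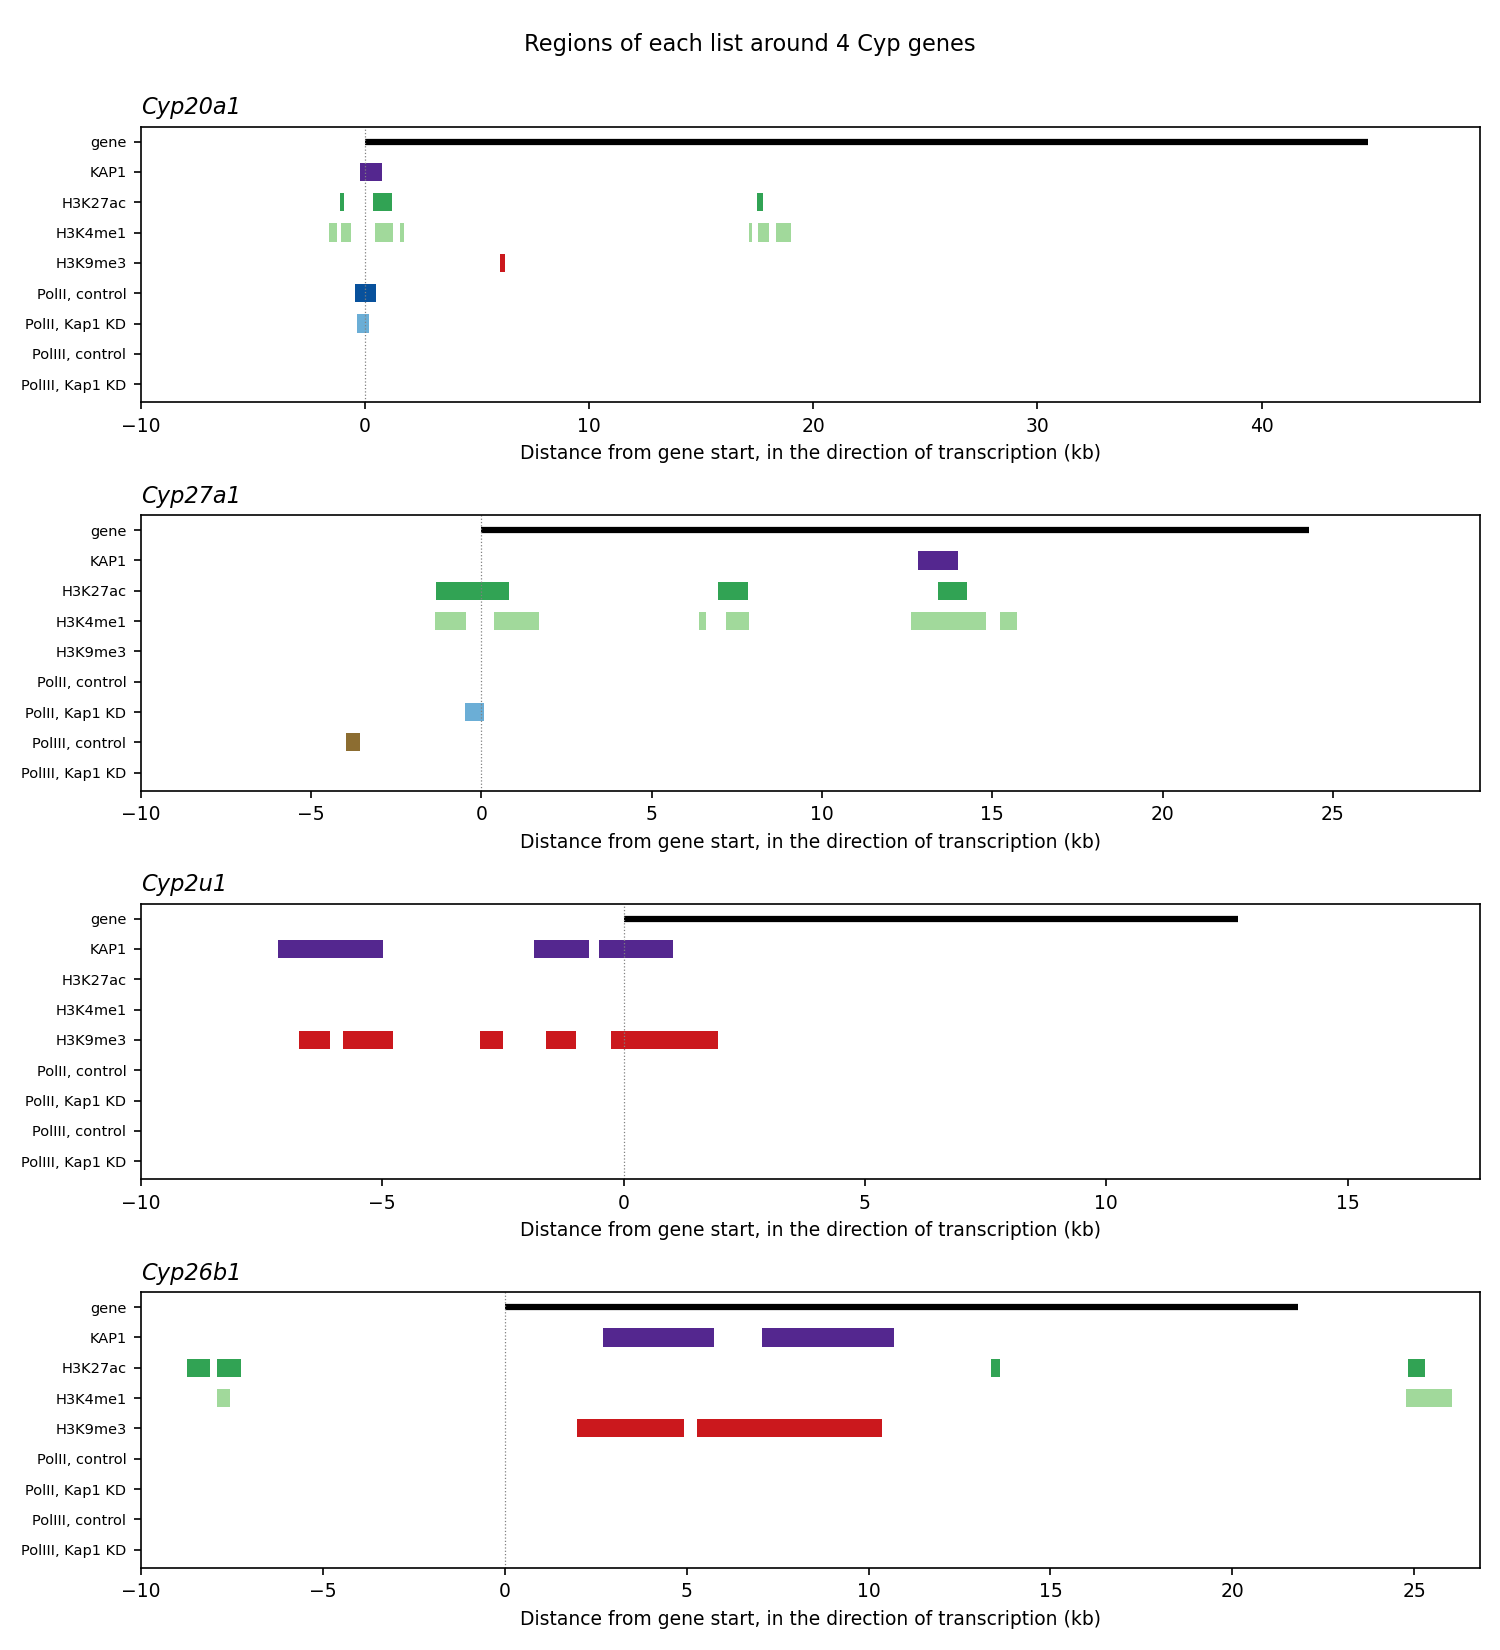
Regions of the 8 lists around Cyp20a1, Cyp27a1, Cyp2u1 and Cyp26b1, drawn by distance from the gene start in kb in the direction of transcription, with the gene as a black bar. The windows run from 10 kb before the start to 5 kb past the end of the gene. Active marks flank the start of Cyp20a1, and at Cyp27a1 H3K27ac covers the start and H3K4me1 flanks it, while in the windows of Cyp2u1 and Cyp26b1 the KAP1 peaks, with scores from 376.89 to 1600.07, overlap H3K9me3 and no active mark.

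The other genes of bile acid and sterol metabolism differed. Cyp39a1 (chr17:43804374-43888380), which hydroxylates oxysterols, had H3K27ac 33 bp and H3K4me1 189 bp downstream of its start. Cyp7b1, the oxysterol hydroxylase of the alternative pathway of bile acid synthesis, had no list over the promoter. H3K27ac came to 588 bp and H3K4me1 to 522 bp from its start, and an H3K27ac region of 6013 bp lay in an intron 114 kb from it. Cyp7a1, the rate-limiting enzyme of bile acid synthesis, had 1 H3K4me1 region of 874 bp in an intron and no H3K27ac within 50 kb. Cyp8b1, which directs synthesis toward cholic acid, and Cyp46a1, a cholesterol hydroxylase of the brain, had no region of any list within 50 kb. In all, 2 of these 6 genes had an active mark over the promoter and 4 of 6 had one in the gene body, where the shares of all genes were 24.8% and 53.9%.

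The strongest KAP1 peaks in or over Cyp genes lay with H3K9me3. Over all 12470 KAP1 peaks 40.1% overlapped H3K9me3, and the share among high-scoring peaks was not computed. At Cyp2u1 (chr3:130993409-131006145, minus strand), a hydroxylase of long-chain fatty acids, a KAP1 peak of score 1483.87 and rank 329 of 12470 (chr3:131005120-131006652) covered the start and the first exon. An H3K9me3 region of 2212 bp (chr3:131004194-131006405) covered the same start. Further KAP1 peaks lay 0.711 kb (score 376.89) and 4.98 kb upstream (score 856.76), both overlapping H3K9me3. H3K27ac came no closer than 30.7 kb to this start. Over the KAP1 and H3K9me3 regions of this promoter, 97% and 97.9% of reads would be unique.

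The 3 retinoic acid hydroxylases, which clear retinoic acid from cells, all had H3K9me3 in the gene body, and Cyp26a1 and Cyp26b1 had KAP1 with it. The shares of all genes with these lists in the body were 23.2% and 23.7%. Cyp26b1 (chr6:84521938-84543740) held 2 KAP1 peaks that reached exons, with scores of 1103.93 (chr6:84533051-84536677) and 1600.07 (chr6:84537988-84541046, rank 302). They overlapped H3K9me3 regions of 5072 and 2946 bp, and 36.8% of the gene was covered by H3K9me3. An H3K27ac region of 239 bp lay in an intron (chr6:84530123-84530361). Cyp26a1 (chr19:37772298-37776018) had an H3K9me3 region of 1636 bp over its start and a weaker KAP1 peak in exons 786 bp downstream (chr19:37773084-37774150, score 94.66). H3K9me3 covered 38.1% of that gene, the highest share of any Cyp gene. Cyp26c1, its neighbour, had 1 H3K9me3 region of 421 bp over an exon. The regions named here for the Cyp26 genes were 100% unique.

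Cyp1b1 (chr17:80106234-80114401) had KAP1 (chr17:80112760-80113818, score 176.45) and H3K9me3 (667 bp) overlapping in exon sequence, 583 and 934 bp downstream of the start. Cyp24a1, which inactivates vitamin D, had H3K9me3 of 1098 bp beginning 280 bp inside the gene, without KAP1 in the gene. The other vitamin D genes differed: Cyp2r1, which makes the circulating form of the vitamin, had H3K27ac 0.26 kb from its start, just outside the promoter window, and Cyp27b1, which makes the active hormone, had no list over its promoter or gene body.

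Adrenal and gonadal steroid genes also carried H3K9me3. Of 6 such genes, 3 had it over the promoter and 4 in the gene body, where the shares of all genes were 5.24% and 23.2%. Of the 3 promoters, 2 were those of Cyp11b1 and Cyp11b2, whose regions have the same sequence. Cyp21a1 (chr17:34938293-34941506), a hydroxylase needed for adrenal steroids, had H3K9me3 of 1161 bp over the start and a KAP1 peak whose edge lay 237 bp upstream (chr17:34941743-34942689, score 96.99). The peak and the region overlapped. Of the reads over that H3K9me3 region, 90.4% would be unique. Cyp11b1 and Cyp11b2, which complete glucocorticoid and aldosterone synthesis, each had an H3K9me3 region of exactly 222 bp near the start (chr15:74671668-74671889 and chr15:74686287-74686508). These 2 regions were identical in 222 of 222 bases and 15.6% of their reads would be unique, so most reads over one region cannot be told apart from reads of the other. Cyp11a1, which cuts the side chain of cholesterol, had an H3K27ac region of 199 bp ending 162 bp upstream of its start (chr9:57862460-57862658). Cyp17a1, needed for androgens, had no list over its promoter or gene body. Cyp19a1, the aromatase that makes estrogens, had 2 intronic H3K27ac regions of 1492 and 1353 bp, the nearer 1.41 kb from the start, and an intronic H3K9me3 region of 134 bp 61.8 kb from the start, of whose reads 73.4% would be unique. With regions of at least 90% unique reads, H3K9me3 was left at Cyp21a1 alone of these 6 genes, both over the promoter and in the body.

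Active marks over promoters of genes for foreign compounds were few. Of 48 such genes, 4 had one (Cyp1a1, Cyp2c68, Cyp2s1 and Cyp3a13) and 2 had H3K9me3 (Cyp2a4 and Cyp2a5), where the shares of all genes were 24.8% and 5.24%. Cyp3a13 (chr5:138334160-138362847), which lies 7.74 Mb from the clustered Cyp3a genes, had the widest active regions of the family at a promoter, with H3K4me1 of 6887 bp across the start (chr5:138357638-138364524) and H3K27ac of 4438 and 1587 bp on its 2 sides. Cyp2c68 (chr19:39763324-39815544) had H3K27ac of 1623 bp inside the gene and 519 bp upstream, with H3K4me1 at both, and 85.4% of the reads of the inner H3K27ac region would be unique. Cyp1a1, the main target of the aryl hydrocarbon receptor, had a narrow H3K27ac region of 199 bp ending 217 bp upstream (chr9:57545005-57545203).

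Cyp2s1 (chr7:26587494-26601932), a dioxin-inducible gene expressed mostly outside the liver, had a PolII peak of 2068 bp under Kap1 KD (chr7:26599670-26601737, score 102, rank 2595 of 12862) that reached to 195 bp from its start. H3K4me1 lay 169 bp upstream and 4 H3K27ac regions of 117 to 701 bp lay inside the gene. The nearest control peak lay 32.5 kb away. In that list 1 peak number was missing between the control peaks on the 2 sides of this start, so the absence of a control peak cannot be read here.

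Of the 15 genes of family 4, most of whose enzymes hydroxylate fatty acids, 3 had H3K27ac over the promoter, a share of 20% that equals the 20% of all genes. Cyp4f17 (chr17:32642418-32643179 and chr17:32643541-32643825), Cyp4b1 (chr4:115320429-115321050) and Cyp4v3 (chr8:46418617-46418922) had regions of 285 to 762 bp. Cyp4f16 had H3K4me1 alone, of 681 and 1038 bp, on each side of its start.

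In gene bodies, H3K9me3 was more frequent at Cyp genes than over all genes. It lay in 37 of 90 (41.1% against 23.2%). The median length of a Cyp gene was 21178 bp against 15427 bp for all genes, and the part of length in these shares was not tested. H3K27ac lay in the bodies of 16 Cyp genes (17.8% against 41%) and H3K4me1 in 23 (25.6% against 50.5%). KAP1 lay in 10 (11.1% against 23.7%). PolII lay in 1 gene body in the control (1.11% against 14.9%) and in 2 under Kap1 KD (2.22% against 27.2%), and PolIII in none and 1 (3.51% and 0.572% of all genes). H3K9me3 without an active mark was found in 25 gene bodies (27.8% against 9.24%), an active mark without H3K9me3 in 14 (15.6% against 40%), both in 12 (13.3% against 13.9%) and no list in 39 (43.3% against 34.7%).

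Part of this H3K9me3 lay in sequence that occurs more than once in the genome. Only 40.5% of all H3K9me3 regions of the list had at least 90% unique reads, compared with 93.3% of H3K27ac regions. With regions below 90% left out, H3K9me3 remained in 23 Cyp gene bodies (25.6% against 15.1% of all genes) and over 4 Cyp promoters (4.44% against 3.17%), which were those of Cyp21a1, Cyp26a1, Cyp2u1 and Cyp2a4. The region of Cyp2a4 (chr7:27091984-27092812), a steroid hydroxylase of mouse liver, was 829 bp wide and 94.0% unique. That of Cyp2a5, a coumarin hydroxylase (chr7:27620429-27620581), was 153 bp wide and 82.5% unique.

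**Figure D3:**
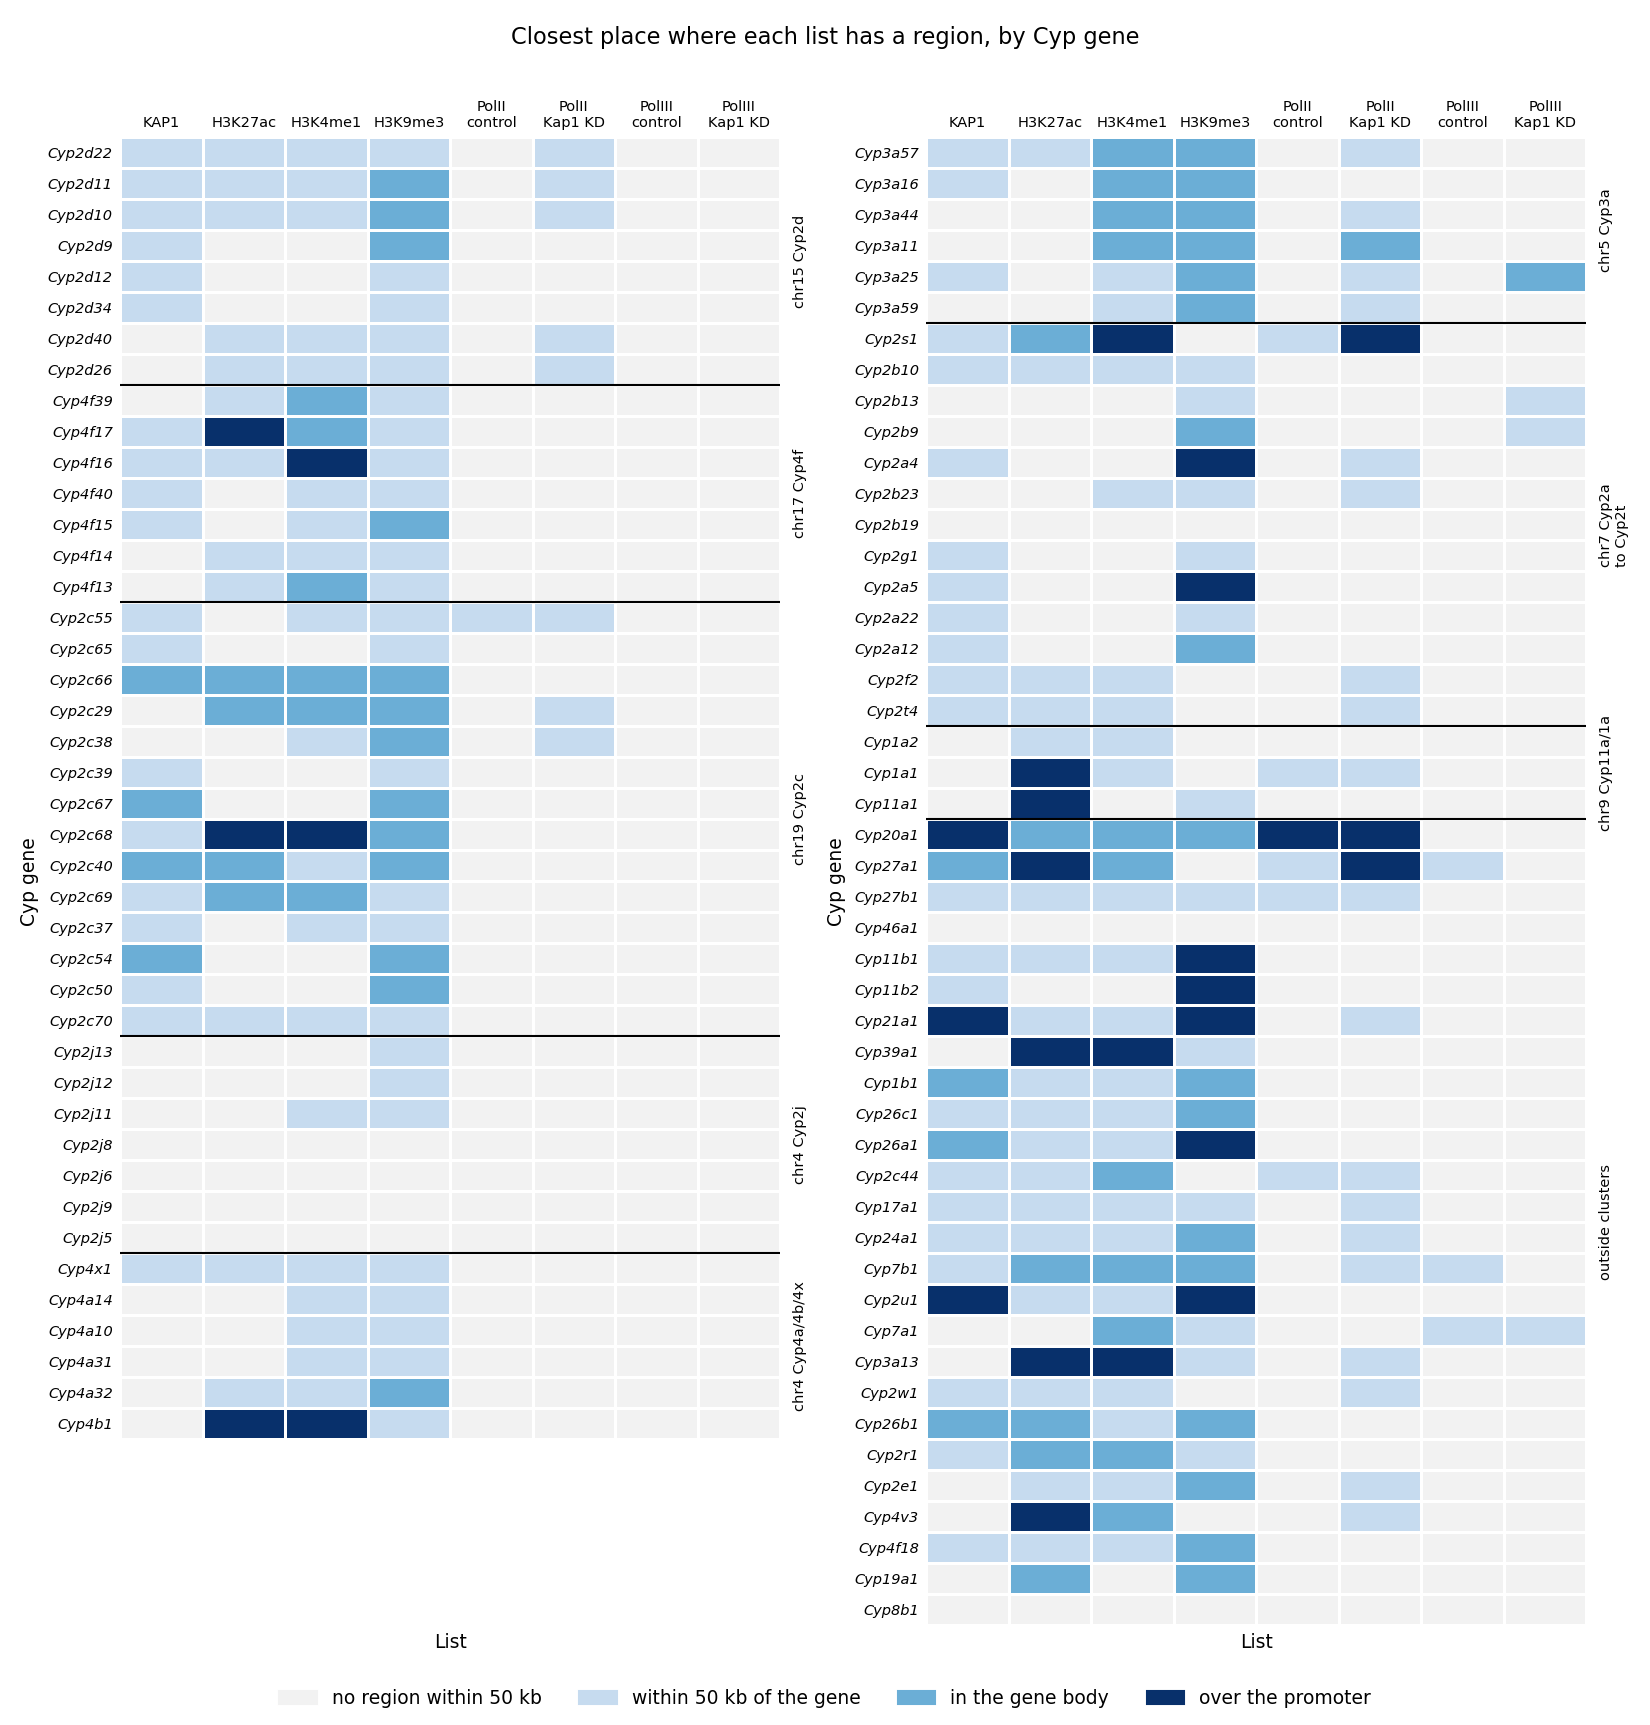
Each of the 90 Cyp genes (rows, grouped by cluster) and each list (columns), coloured by the closest place with a region: promoter, gene body, within 50 kb, or none. The 7 genes of the Cyp2j cluster have no list over promoter or body, the 6 genes of the Cyp3a cluster all have H3K9me3 in the body, and dark cells for KAP1 are seen at Cyp20a1, Cyp21a1 and Cyp2u1.

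Within 50 kb of the gene, most Cyp genes had several lists. H3K9me3 lay within 50 kb of 74 (82.2% against 66.8%), H3K4me1 of 63 (70.0% against 79.5%), KAP1 of 53 (58.9% against 56%) and H3K27ac of 49 (54.4% against 75.5%). PolII lay within 50 kb of 7 in the control (7.78% against 37.5%) and of 31 under Kap1 KD (34.4% against 56.2%). PolIII lay within 50 kb of 3 in the control (3.33% against 11.6%) and of 4 under Kap1 KD (4.44% against 3.72%). With regions of at least 90% unique reads, the order turned for KAP1 (43 genes, 47.8% against 51.9%) and for PolIII under Kap1 KD (2 genes, 2.22% against 2.92%). Within 100 kb, KAP1 lay near 67.8% against 68.3%. Within 50 kb, 56 Cyp genes had both an active mark and H3K9me3 (62.2% against 55.4%), 18 had H3K9me3 alone (20% against 11.4%), 9 had an active mark alone (10.0% against 27.9%) and 7 had no list (7.78% against 4.74%).

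The nearest H3K9me3 region was closer to Cyp starts than to starts in general, with medians of 16.4 and 35.8 kb. The nearest H3K27ac region was farther, with medians of 46.3 and 12.5 kb, and so was the nearest H3K4me1 region, with 24.3 and 5.09 kb. For KAP1 the medians were alike, at 50.4 and 49.2 kb. For PolII they were 345 and 139 kb in the control and 104 and 46.3 kb under Kap1 KD, distances that span missing peak numbers at 40 and 30 Cyp starts.

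**Figure D4:**
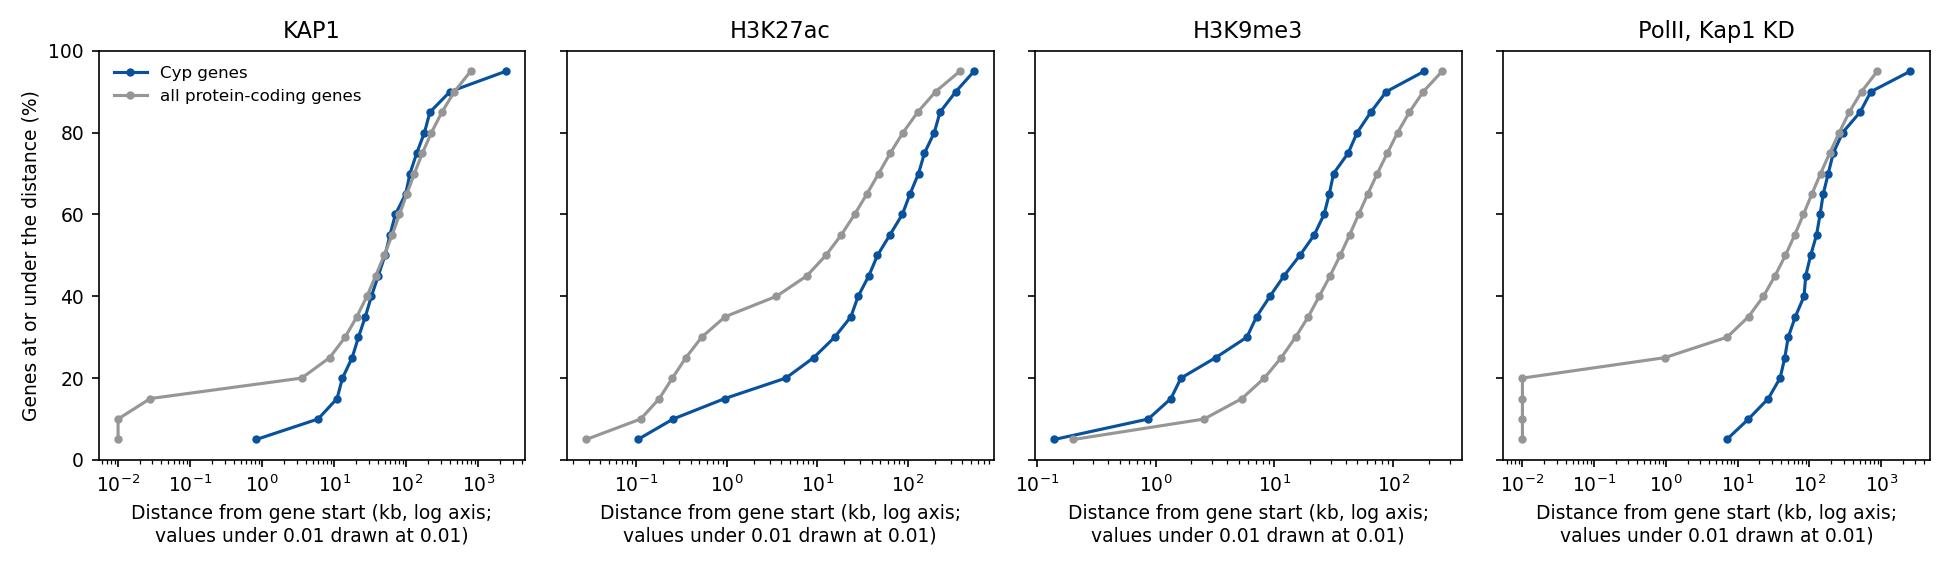
Share of Cyp genes (blue) and of all protein-coding genes (grey) whose start lies within a given distance (kb, log axis) of the nearest KAP1, H3K27ac, H3K9me3 or PolII (Kap1 KD) region, in steps of 5 percentiles, with distances under 0.01 kb drawn at 0.01 kb. The Cyp curve lies to the right of the other for H3K27ac (medians 46.3 and 12.5 kb) and to the left for H3K9me3 (16.4 and 35.8 kb), and the 2 KAP1 curves meet near their medians.

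The 76 distinct KAP1 peaks within 50 kb of a Cyp gene divided into those with H3K9me3 and those with active marks. H3K9me3 alone overlapped 36 of them, an active mark alone 27, both 4 and neither 9. Thus 52.6% overlapped H3K9me3, compared with 40.1% of all 12470 KAP1 peaks, and 40.8% overlapped an active mark, compared with 47.9%. Of the 10 genes with KAP1 in the body, 9 also had H3K9me3 there, against 40.0% of all genes with KAP1 in the body. In 7 of the 10, a KAP1 peak itself overlapped H3K9me3. A promoter peak that runs past 250 bp also counts in the body. Of all genes with KAP1 over the promoter, 9.65% had H3K9me3 there, and the part of such peaks in the 40.0% was not tested. In the Cyp2c cluster, the KAP1 peaks of Cyp2c66 (chr19:39204902-39205898, score 57.85), Cyp2c67 (chr19:39721333-39722361, score 306.05) and Cyp2c54 (chr19:40140140-40141006, score 101.35) overlapped intronic H3K9me3. The peak of Cyp2c40 (chr19:39885014-39886425, score 159.37) overlapped H3K27ac instead. Of the reads over these 4 peaks, 86.6%, 94.1%, 59.7% and 87.4% would be unique.

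The clusters differed in H3K9me3. In the Cyp3a cluster on chromosome 5 (818.714 kb, 6 genes), which holds the main drug-metabolising enzymes of the liver such as Cyp3a11, 188 H3K9me3 regions covered 27.5% of the sequence, against 1.56% of the genome. The 500 kb on each side were covered to 24.2%, so the mark extended past the Cyp genes. Within the 6 genes themselves the cover was 6.14%, and none of their promoters had H3K9me3. Cyp3a41a and Cyp3a41b, left out for the further letter in their symbols, also lie in the cluster, so the 6.14% does not count them. With the 4 left-out genes of this kind included, H3K9me3 lay in 41 Cyp gene bodies, compared with 37. H3K27ac had no region in the cluster, against 3.86% of the flanks. Unknown bases made up 6.11% of the cluster, and 76.4% of its reads would be unique.

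In the whole Cyp3a cluster, PolIII had 1 peak of 2605 bp in the control (0.318% of the sequence) and 1 of 1317 bp under Kap1 KD (0.161%). PolII had no peak there in the control list and 8 under Kap1 KD, which covered 1.36%, against 6.15% of the flanks. Inside the Cyp genes each polymerase had 1 peak, both under Kap1 KD. Cyp3a11 (chr5:146666002-146691540) had a PolII peak of 140 bp in an intron (chr5:146684513-146684652, score 15, rank 12511 of 12862), within H3K9me3 of 900 bp. Cyp3a25 (chr5:146788770-146821194) had a PolIII peak of 1317 bp over an exon (chr5:146795906-146797222, score 16, rank 313 of 431). At both starts the control lists lacked peak numbers, 16 for PolII and 12 for PolIII, so the absence of control peaks cannot be read there.

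H3K9me3 exceeded the flanks in the Cyp2d cluster on chromosome 15 (4.0% against 0.694%), the Cyp2c cluster on chromosome 19 (2.79% against 1.08%) and the cluster of Cyp2a, Cyp2b, Cyp2f, Cyp2g, Cyp2s and Cyp2t genes on chromosome 7 (2.39% against 0.709%). Counting only regions with at least 90% unique reads, the values were 1.79% against 0.694% for Cyp2d, 0.754% against 0.763% for Cyp2c and 0.835% against 0.335% for chromosome 7. At Cyp2c, cluster and flanks were then covered alike. Counting all regions, the whole chromosomes were covered to 5.80% (chromosome 15, above its Cyp2d cluster), 1.49% (chromosome 19) and 2.14% (chromosome 7). For Cyp3a the same step gave 11.8% against 15%.

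In the remaining clusters, H3K9me3 was closer to or below the level of the flanks. The Cyp4f cluster on chromosome 17, which also holds the zinc finger genes Zfp871, Zfp811, Zfp799 and Zfp870, was covered to 2.95% against 5.16% in its flanks, and the Cyp4a, Cyp4b and Cyp4x cluster on chromosome 4 to 0.768% against 0.760%. With regions of at least 90% unique reads, these values were 2.10% against 2.74% and 0.121% against 0.662%. In the chromosome 4 cluster, Cyp4a10 and Cyp4a14, fatty acid hydroxylases induced by PPAR alpha, had no list over promoter or body, and the nearest H3K27ac lay 130 and 152 kb from their starts. The cluster of Cyp1a1, Cyp1a2 and Cyp11a1 on chromosome 9 had 3.17% H3K27ac against 3.35% in its flanks and 1 H3K9me3 region of 41 bp. The Cyp2j cluster on chromosome 4, whose enzymes act on arachidonic acid, was nearly free of regions, with 0.142% H3K9me3 against 0.11% in its flanks, 0.0281% H3K4me1 and no region of the other 6 lists. All 7 Cyp2j genes lacked any list over promoter and body.

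**Figure D5:**
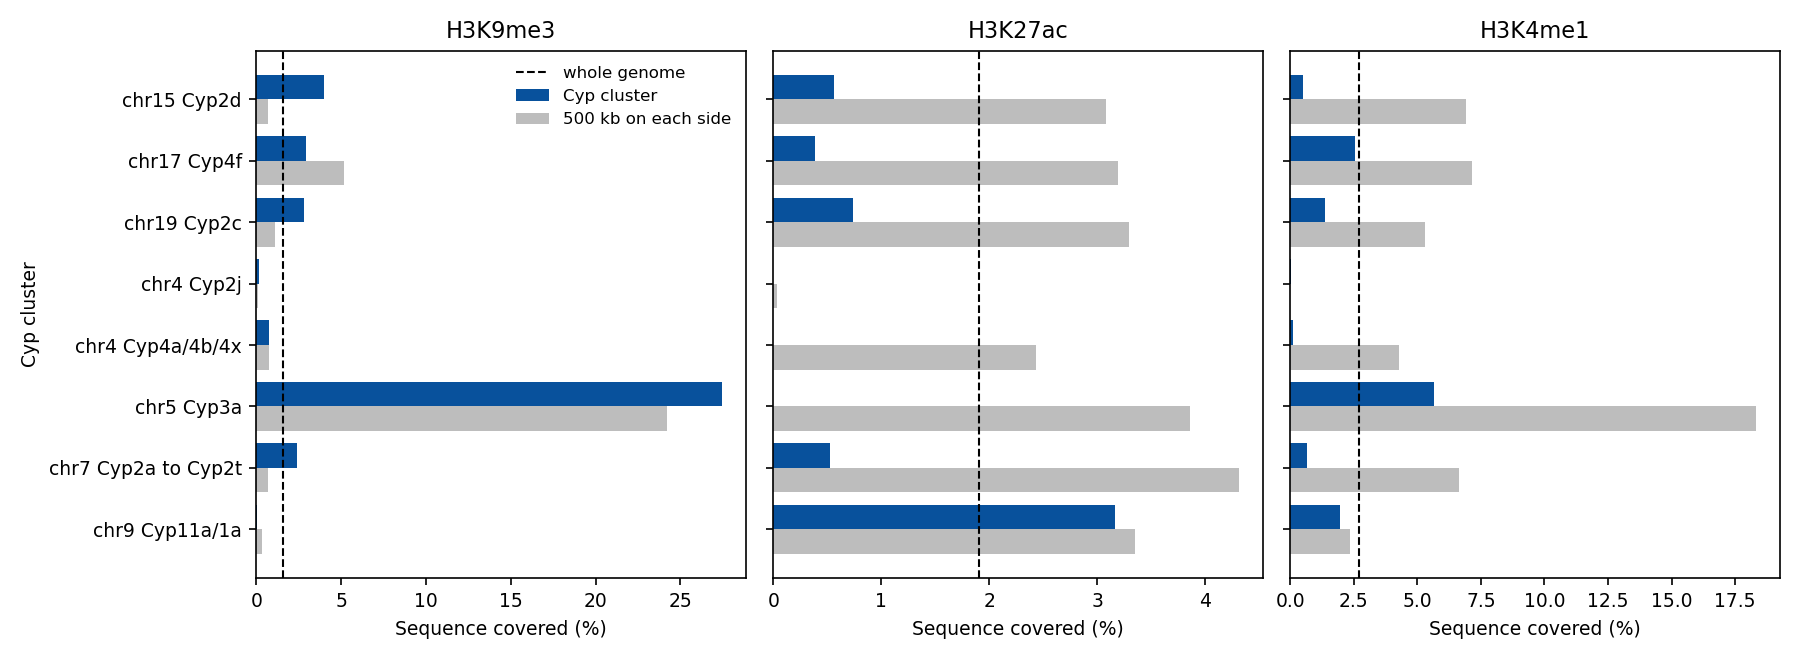
Percent of the sequence of each Cyp cluster (blue) and of the 500 kb on each side of it (grey) covered by H3K9me3, H3K27ac and H3K4me1, with the whole genome as a dashed line. The Cyp3a cluster stands apart in H3K9me3 (27.5%) together with its flanks (24.2%), and H3K27ac is lower in each cluster than in its flanks, with the highest cover in the chromosome 9 cluster (3.17% against 3.35%).

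Pooled over the 8 clusters (5.79 Mb), H3K9me3 covered 5.64% of the sequence and 4.14% of the flanks, H3K27ac 0.539% and 2.95%, and H3K4me1 1.61% and 6.37%. Genome-wide, the values were 1.56%, 1.90% and 2.69%. The Cyp3a cluster held 225 kb of the 326 kb of H3K9me3, and without it the other 7 clusters were covered to 2.04% and their flanks to 1.27%. For H3K4me1 these values were 0.944% and 4.66%. Of the 64 clustered genes, 7 had an active mark over the promoter and 2 had H3K9me3, where the shares of all genes were 24.8% and 5.24%. Of the 26 genes outside clusters, 4 had an active mark there and 5 had H3K9me3. KAP1 lay over 3 of these 26 promoters, not above the 15.7% of all genes, and over none of the clustered ones.

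The remaining well-known genes for foreign compounds were without regions at their starts. Cyp2b10, induced through the constitutive androstane receptor, had no list over promoter or body. A KAP1 peak of score 914.64 (rank 557) lay with H3K9me3 28.8 kb upstream of it. Cyp2e1 had a single H3K9me3 region of 105 bp in an intron and H3K4me1 2.46 kb from its start. Cyp2d22 had no list over promoter or body, with H3K27ac 13.3 kb and H3K9me3 12 kb from its start. Cyp1a2 had H3K27ac 2.90 kb from its start. Cyp2c29 had 7 H3K9me3, 6 H3K4me1 and 2 H3K27ac regions in introns. The widest H3K9me3 region there (6935 bp) overlapped regions of both active marks, and 23.9% of its reads would be unique.

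Genes that supply or regulate the P450 enzymes were listed for comparison. Of 7 genes of electron supply and heme metabolism, 3 had an active mark over the promoter (Por, Cyb5r3 and Hmox1) and 2 had PolII in either condition (Cyb5b and Cyb5r3), where the shares of all genes were 24.8% and 24.1%. Por encodes the reductase that serves microsomal P450s. Alas1, which starts heme synthesis, and Fdx1 had no list over the promoter. Of 17 regulators, 9 had an active mark, 6 had PolII in either condition, 3 had KAP1 (Nr1h3, Cebpa and Cebpb) and none had H3K9me3. The last 2 counts are near the shares of all genes, 15.7% and 5.24%. The receptors of foreign compounds were split. Over the promoter, Ahr had H3K27ac and PolII in both conditions, Nr1i3 had H3K4me1 and PolIII in the control, and Nr1i2 had no list. In its body Nr1i2 had 1 KAP1 peak.

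Regions were unevenly spread over chromosomes, which bears on the comparison of clusters with each other. Among the 14 chromosomes with Cyp genes, H3K4me1 regions ranged from 7.64 per Mb on chromosome 12 and 8.63 on chromosome 9 to 90.7 on chromosome 15, against 27.9 over all chromosomes. PolIII peaks of the control ranged from 0.0645 per Mb on chromosome 9 to 6.81 on chromosome 1. Without chromosomes 9, 12 and 15, H3K9me3 lay in 31 of 74 Cyp gene bodies (41.9% against 23.7% of all genes there) and H3K27ac over 7 of 74 promoters (9.46% against 20.6%).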

How the data were processed

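ChIP-seq lists from Hepa 1-6 cells were analysed for 8 libraries, 1 per group. The authors mapped reads to mm9 with Bowtie. Using MACS with total input as the background, they called peaks of KAP1 and of PolII. Regions of the histone marks were called by the authors with the ChIP-Part module. The program for PolIII peaks is not given in the sources used here. Deposited histone lists hold positions only. The deposited KAP1 list has a score per peak, taken here to be the MACS score, and the deposited PolII and PolIII lists have a whole-number score whose meaning is not stated, so scores were compared only by rank within a list. The 5 input libraries were not used here.

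Regions were overlapped (at least 1 bp) with the promoter (250 bp on each side of the start), the gene body from 250 bp onward and the gene with 50 kb on each side, for 22367 protein-coding genes. The 13 mitochondrial genes were left out. The members and lists were chosen with earlier results of these data known. With 1 library per group no test was made, and counts over the Cyp genes are set beside the share of all protein-coding genes. Depth is unknown, so no interval was given. Genes named with positions were those with KAP1 or a polymerase over promoter or body or with H3K27ac or H3K9me3 over the promoter, plus a list of well-known members, and some others were chosen after their values were seen. Unique reads were computed as 100-base stretches that occur once in mm9 on either strand. Alternatives were a promoter of 1000 bp on each side, 0.5 of the promoter covered, the median score or width as a minimum, the whole gene, 100 kb, other cluster limits, 4 further symbols, unique regions and clusters without Cyp3a. The overlap code was tested on simulated data. Python 3.11.15, NumPy 2.4.6, pandas 2.3.3, SciPy 1.17.1, Numba 0.67.0 and Matplotlib 3.10.9 were used.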

Additional observations from a re-analysis of the deposited data

How the results depend on the processing

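Of 131 values computed under other settings for 34 results, 93 stayed within 1.5 times the main count. The other 38 were 22 counts that moved further and 16 cluster covers, which are given below as values. Shares of all protein-coding genes under the same setting follow as "against". With promoters of 1000 bp on each side, KAP1 lay over 6 Cyp promoters (6.67% against 17.2%) and H3K27ac and H3K4me1 over 14 each (15.6% against 35.2% and 37.1%). With at least 0.5 of the promoter covered, H3K27ac lay over 3 (3.33% against 4.46%), H3K4me1 over 2 (2.22% against 2.75%) and H3K9me3 over 4 (4.44% against 3.06%). With peaks at or above the median score of their list, KAP1 lay over 1 promoter (1.11% against 7.98%) and in 6 bodies (6.67% against 13.2%). On the same setting PolII under Kap1 KD lay over 1 promoter (against 15.7%), in 1 body (against 19.2%) and within 50 kb of 18 genes (20% against 40.2%), and PolIII lay within 50 kb of 1 gene in the control (against 7.66%) and under Kap1 KD in 0 bodies (against 0.259%). With regions at or above the median width, H3K27ac lay in 10 bodies (11.1% against 28%), H3K4me1 in 13 (14.4% against 39.7%) and H3K9me3 over 4 promoters (4.44% against 4.28%). Counting the promoter as part of the gene, PolII under Kap1 KD lay in 4 (4.44% against 30.6%). Within 100 kb, PolII lay near 18 genes in the control (20% against 47.4%) and 48 under Kap1 KD (53.3% against 67%). With 50 kb added to each side of the clusters, KAP1 covered 0.786% of the sequence, H3K27ac 1.03%, H3K4me1 2.09% and H3K9me3 5.37%. The control lists then covered 0.156% (PolII) and 0.0396% (PolIII), and the lists of Kap1 KD cells 0.612% and 0.115%. Without the Cyp3a cluster, the cover was 0.539% for KAP1 (0.556% with it), 0.628% for H3K27ac, 0.944% for H3K4me1 and 2.04% for H3K9me3, and for the control lists 0.0519% (PolII) and 0% (PolIII). The lists of Kap1 KD cells then covered 0.187% and 0.126% (0.353% and 0.131% with it). This setting, regions with at least 90% unique reads and symbols with 1 more letter were chosen after seeing the data. With unique regions, H3K9me3 lay over 4 promoters (4.44% against 3.17%) and in 23 bodies (25.6% against 15.1%), and PolIII under Kap1 KD lay within 50 kb of 2 genes (2.22% against 2.92%). No paired analysis was possible because each group had 1 library. The depth of the libraries is unknown and limits the statement that a gene had no region.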

Other observations

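The 7 Cyp genes with no list within 50 kb (7.78% against 4.74% of all genes) lay in stretches without a region of any of the 8 lists. That each stretch was longer than this window was fixed by the choice of genes. The ranks below are among stretches and not among genes. Cyp2j5, Cyp2j6, Cyp2j8 and Cyp2j9 shared a stretch of 496.397 kb on chromosome 4, which ranked 131 by length among 146287 such stretches of the genome, where the median was 2.446 kb. Cyp46a1 lay in a stretch of 386.718 kb (rank 260), Cyp8b1 in one of 234.021 kb (rank 1095) and Cyp2b19 in one of 174.963 kb (rank 2008). The stretch of Cyp2b19 also holds the starts of Cyp2b23 and Cyp2g1, which had regions within 50 kb. Cyp46a1 is on chromosome 12 and Cyp8b1 on chromosome 9, where the lists were sparse.

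In an intron of Cyp2c29, 2 H3K9me3 regions of 172 bp were identical to each other in 172 of 172 bases, and 2 regions of 164 bp in 164 of 164 bases. None of the reads over them would be unique. H3K4me1 regions of 143 and 141 bp overlapped the latter pair.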
